A study of Bos taurus with 39 samples.

Results

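The miR-30 family is a set of microRNAs (miRNAs) made from separate genes and joined by a shared seed, the stretch near the 5′ end of a mature miRNA that pairs with target mRNAs. A member is cut from a hairpin precursor, and the arm that is loaded into the silencing complex, the guide, lowers the translation and stability of the mRNAs it pairs with. The family is known for roles in differentiation, apoptosis and autophagy, and miR-30d of maternal origin is known to be taken up by preimplantation embryos. Members were taken as all known miRNAs of the deposited tables named bta-miR-30a to bta-miR-30f, with or without the suffix of the 5p arm. These were bta-miR-30a-5p, bta-miR-30b-5p, bta-miR-30c, bta-miR-30d, bta-miR-30e-5p and bta-miR-30f, 6 of the 1030 known miRNAs and of 1995 known and predicted miRNAs together. One opposite arm, bta-miR-30b-3p, was also listed.

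Counts of mature miRNAs came from 39 libraries of bovine oocytes pooled from slaughterhouse ovaries, with 3 libraries in each of 13 conditions. Oocytes matured for 1, 6 or 22 h in 4 groups, and 3 further control libraries were labelled 0 h. The study asked how contact with cumulus cells, the somatic cells around the oocyte, affects the miRNAs of the maturing oocyte. Control oocytes matured inside intact cumulus-oocyte complexes (COCs), and their cumulus was stripped off before RNA isolation. The CBX group was treated alike with carbenoxolone, which blocks gap junctions, the channels that join cumulus cells to the oocyte. Denuded oocytes of the cocult group shared medium with COCs without touching them, and those of the DO group matured without any cumulus cells. Replicate numbers 1 to 3 in the labels were taken here as the ovary pool, which the study used as a batch term without saying which number it had. How many oocytes and pools stand behind the 0 h libraries was not given in the sources used here.

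Libraries held between 11985 and 175429 miRNA counts (median 70069), so that a floor of 3 counts lay between 18.8 and 223.4 CPM (counts scaled to a common library total after TMM normalization, as are all levels given here). These floors cover counting error only. The libraries under 25000 counts were control 0 h replicate 1, CBX 22 h replicate 2 and control 6 h replicate 1. No list of oocyte miRNAs was at hand to check the cell type. Of 9 miRNAs linked to granulosa and cumulus cells, 8 had counts, with miR-212 at 0 in every library, and their summed level ran from 5178 to 13712 CPM (median 7512). Of 6 blood miRNAs, 5 had counts (0 to 2823 CPM in sum, with miR-142-3p at 0), and of 4 muscle miRNAs, 3 had counts (0 to 12214 CPM in sum, with miR-133b at 0). In pooled oocytes, a lower level per cell and fewer contributing cells cannot be told apart.

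miR-30d carried most of the family. It had 36768 counts over the 39 libraries, was the 10th most abundant known miRNA by mean level and had between 125 and 2476 counts in a library. miR-30a-5p, with 5206 counts, ranked 40th, and miR-30e-5p, with 4483 counts, ranked 43rd. miR-30b-5p followed with 1906 counts at rank 70 and miR-30c with 1581 counts at rank 72. miR-30f had 35 counts in all. It was at 0 in 16 libraries and at no more than 3 counts in any, so that it never exceeded the floor, passed the low-count filter of no comparison and was not tested. The opposite arm miR-30b-3p had 7 counts in all and was at 0 in 32 libraries. Levels between members are compared as counts of mature miRNAs. No correction for length or for how well each member is captured in a library was made.

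Together the members took 2.74% to 4.57% of the known miRNA counts of a library (median 3.84%), or 164 to 3171 counts. As a share of the family's own counts, which does not depend on the scaling between libraries, miR-30d held 74.0% ± 4.17 (SD, n = 39). miR-30a-5p held 10.1% ± 1.59 and miR-30e-5p 8.94% ± 2.28. miR-30b-5p held 3.77% ± 1.35, miR-30c 3.18% ± 0.978 and miR-30f 0.0778%. The share of miR-30d was lowest in CBX 1 h replicate 1 (61.4%) and highest in CBX 22 h replicate 2 (85.5%), which is one of the 3 shallow libraries. Shares moved between libraries by more than counting alone would give, with a chi-square per degree of freedom of 9.87 for miR-30d, 7.78 for miR-30e-5p, 5.17 for miR-30b-5p, 3.95 for miR-30c and 2.34 for miR-30a-5p. A value near 1 is sampling noise, and miR-30f was at 1.01.

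**Figure D1:**
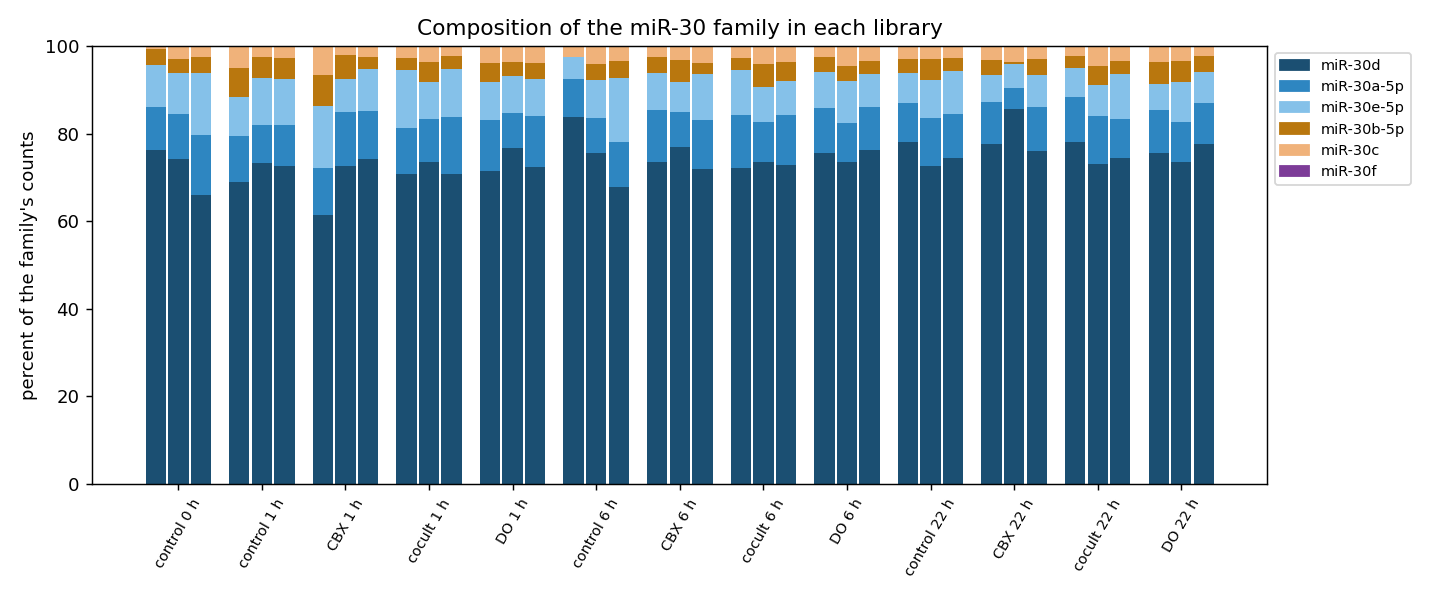
Percent of the miR-30 family's counts (vertical axis) held by each of the 6 members, as 1 stacked bar per library, with the 3 libraries of a condition side by side in the order of replicates 1, 2 and 3. miR-30d fills 61.4% to 85.5% of every bar, and miR-30f, at 0.0778% on average, is too thin to see.

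All 6 members matched a RefSeq gene. The neighbours of these genes were read from the ARS-UCD2.0 annotation, whereas the counts were made on ARS-UCD1.2, so no position is given. MIR30C and MIR30E are adjacent and both lie within NFYC, which encodes a subunit of the transcription factor NF-Y. MIR30D and MIR30B are adjacent. MIR30A lies within an uncharacterised protein-coding locus, and MIR30F lies next to that locus. The ratio of mature counts between neighbours varied from library to library. In the 36 libraries above 25000 counts, the count of miR-30d over that of miR-30b-5p ran from 8.51 to 29.9, and miR-30e-5p over miR-30c from 1.56 to 5.59. Across the 13 condition means on the log2 scale, the correlation was 0.15 for miR-30d with miR-30b-5p and −0.19 for miR-30e-5p with miR-30c, each condition being the mean of log2(CPM + 1) over its libraries. Each of these pairs holds a rarer member, miR-30b-5p or miR-30c, with a median of 41 and 37 counts in a library. Counting noise alone can widen such ratios and weaken such correlations. The condition means also share their libraries and scaling, and the correlations are descriptions only. The closest pair by this measure was miR-30a-5p with miR-30e-5p (Pearson r = 0.84, n = 13 conditions), whose genes are not neighbours. With the log2 of each condition's mean CPM in its place, these 3 correlations were 0.17, −0.15 and 0.72. miR-30a-5p and miR-30e-5p had higher counts than miR-30b-5p and miR-30c, and how reads shared by similar members were divided is not given. The pairs can therefore not be ranked by the position of their genes.

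The mean level of the family spanned a 1.36-fold range over the 13 conditions. After TMM normalization over all libraries, the summed family averaged 16197 CPM (SD 2858, n = 39). The highest mean was 19526 ± 3766 CPM (SD, n = 3) in cocult at 22 h, and the lowest 14397 ± 4024 CPM in CBX at 22 h. Ordered from high to low, all 12 steps between neighbouring conditions were within the larger of their SDs. This held for the sum and for each of the 5 abundant members. Sorting 13 means makes such steps small in any case, so the steps do not show that the conditions are alike.

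For miR-30d, the cocult 22 h libraries were at 18511, 13504 and 12206 CPM for replicates 1, 2 and 3. The control 22 h libraries were at 15463, 10211 and 15131 CPM, and the CBX 22 h libraries at 12252, 8436 and 13348 CPM. DO at 22 h was at 14236, 10458 and 13560 CPM. The 4 groups overlapped at 22 h, and the lowest library in 3 of them was replicate 2. At 1 h, miR-30d was at 11274, 9317 and 13784 CPM in control and at 10103, 9672 and 12447 CPM in CBX. It was at 10998, 10672 and 11632 CPM in cocult and at 12225, 9907 and 10558 CPM in DO, again with overlapping groups. The 12 libraries at 6 h lay between 8580 and 14910 CPM (median 11697), and the 3 at 0 h were at 9309, 11015 and 13506 CPM.

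The other members had wider relative ranges. Condition means of miR-30e-5p ran from 923 ± 374 CPM in CBX at 22 h to 1816 ± 940 CPM in control at 0 h (SD, n = 3), and those of miR-30a-5p from 1251 ± 669 CPM in CBX at 22 h to 1959 ± 492 CPM in cocult at 22 h. The lowest mean of miR-30b-5p, 393 ± 345 CPM in control at 6 h, included a library at 0 counts, control 6 h replicate 1, in which a count of 0 allows up to 123.4 CPM. Its highest was 876 ± 255 CPM in control at 1 h. miR-30c ran from 341 ± 235 CPM in control at 0 h to 654 ± 165 CPM in cocult at 22 h. Its lowest mean included control 0 h replicate 1, with 1 count (74.5 CPM), under the floor of 223.4 CPM of that library. The lowest means of miR-30a-5p and miR-30e-5p included the shallow CBX 22 h replicate 2, with 11 and 12 counts.

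**Figure D2:**
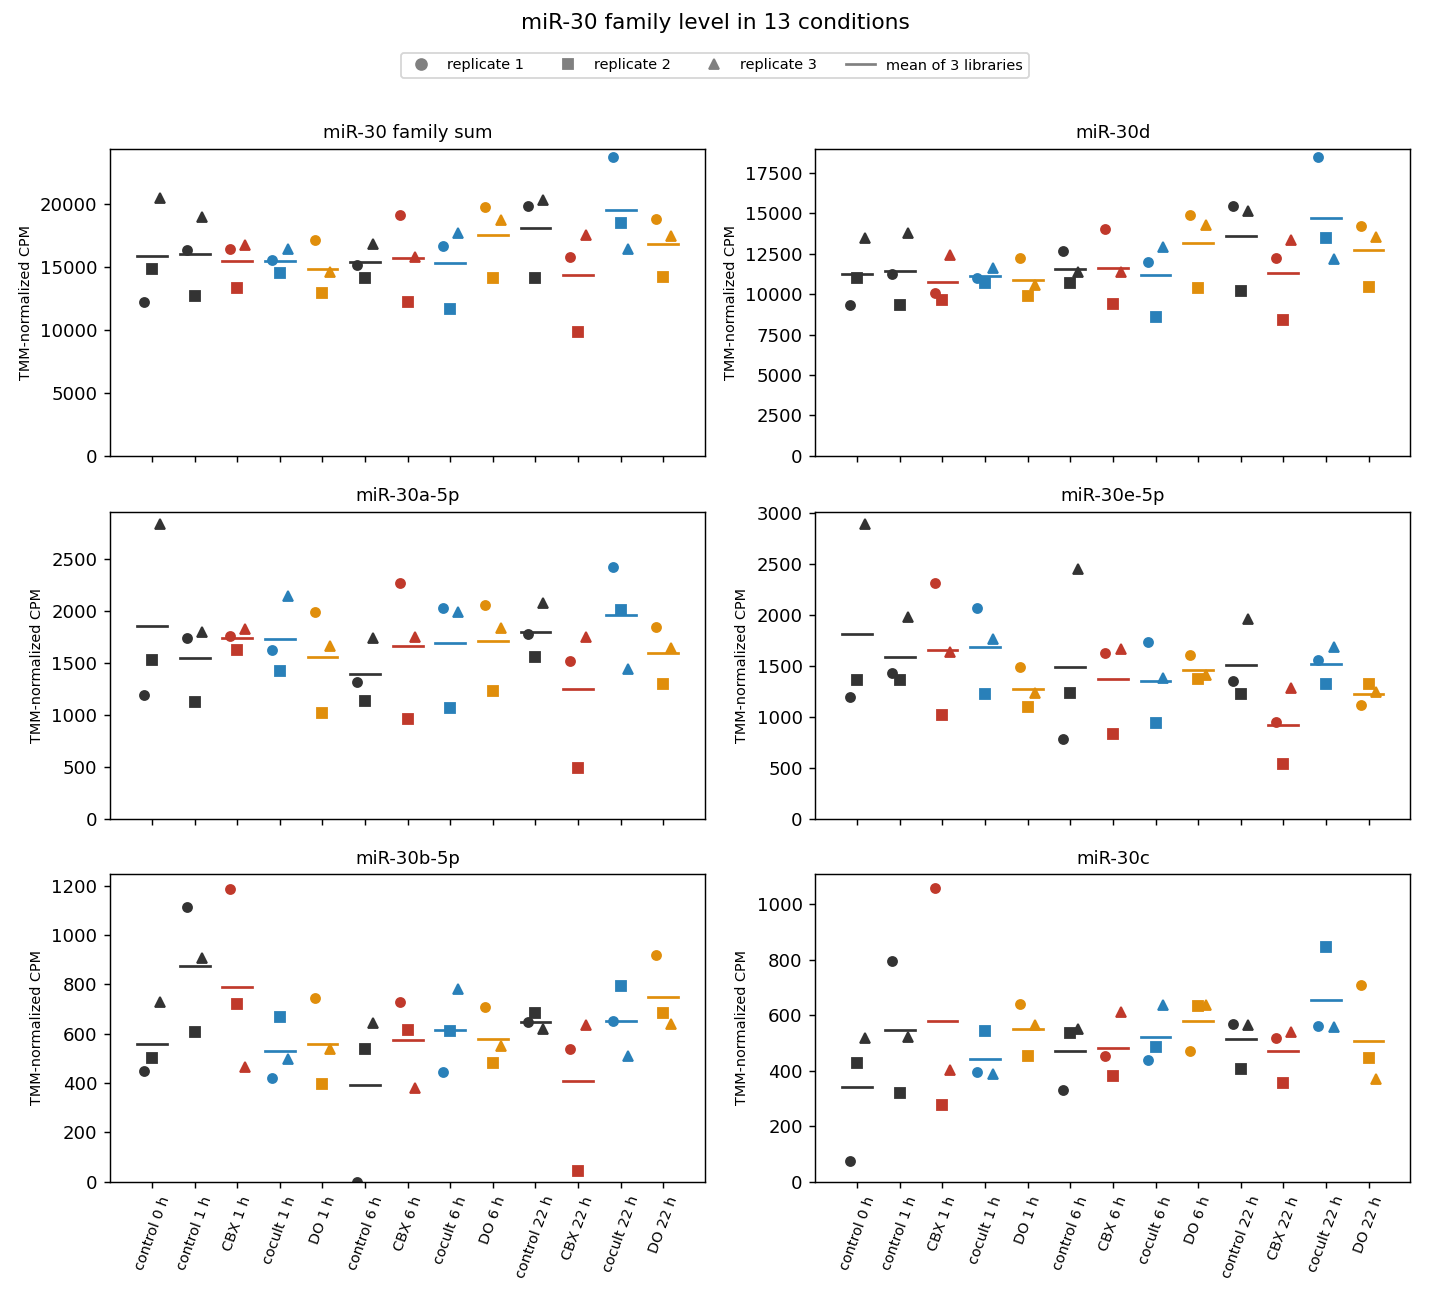
TMM-normalized CPM (vertical axes, from 0) of the family sum and of 5 members in each library, by condition (horizontal axes), with the mean of 3 libraries as a bar, colours for the groups and symbols for the replicate numbers. Libraries of conditions side by side overlap, except for cocult at 22 h in the panels of miR-30e-5p and miR-30c. There, in the scaling over all libraries, it lies above CBX at 22 h in both, and just above DO at 22 h for miR-30e-5p. How many of all miRNAs have such gaps was not counted. The square of replicate 2 is the lowest of its condition in 11 of 13 conditions for the family sum and for miR-30d.

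No member passed the test between groups. The 18 comparisons of control, CBX, cocult and DO at 1, 6 and 22 h were fitted with edgeR's quasi-likelihood test, and a call needed a Benjamini-Hochberg adjusted p under 0.05 together with a log2 fold change of 1 or more in size. Each group takes part in several of these comparisons. Of 90 tests of members, 0 passed, against 21 of 7883 tests over all miRNAs (0.266%, between 0% and 2.35% of the miRNAs in a single comparison). By comparison, that share was 1.46% for CBX against DO at 1 h, 2.35% for CBX against DO at 6 h, 0.473% for cocult against DO at 6 h, 0.216% for control against cocult at 22 h (0.431% with no fold minimum), 0.232% for CBX against DO at 22 h and 0% in the other 13. Among those at 0% are control against CBX and control against DO at 22 h and CBX against cocult at 1 h, in which the study itself called miRNAs. These shares thus differ from the study's own calls, and the reason was not tested. At an unadjusted p under 0.05 there were 3 member tests, or 3.33%, against 5.24% over all miRNAs, and the smallest adjusted p of a member was 0.465 (edgeR). DESeq2 also called 0. The log2 fold changes of miR-30d lay between −0.29 and 0.24 over the 18 comparisons, with a median standard error of 0.18. Those of the rarer miR-30b-5p reached from −0.69 to 0.90, with a median standard error of 0.35.

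Among the comparisons with control, CBX at 22 h had the lowest median over the members and the lowest values of miR-30a-5p and miR-30e-5p. Single values were lower elsewhere for the others, as for miR-30b-5p in cocult at 1 h (−0.69) and miR-30d in cocult at 6 h (−0.29). miR-30e-5p was at 1351, 1220 and 1957 CPM in control and at 953, 536 and 1281 CPM in CBX, so that the groups overlapped between 1220 and 1281 CPM while each CBX library was below the control library of its own number. The log2 fold change was −0.63 (95% interval −1.19 to −0.07), with an adjusted p of 0.465 in edgeR. miR-30a-5p had a log2 fold change of −0.51 (interval −1.21 to 0.19), miR-30b-5p −0.61 (−1.88 to 0.66), miR-30d −0.15 (−0.52 to 0.22) and miR-30c −0.04 (−0.70 to 0.63). All 5 point estimates were below 0, with a median of −0.51 against −0.03 over the 474 miRNAs tested, of which 0 were called (0%), although 50 reached an unadjusted p under 0.05. CBX 22 h replicate 2, with 18796 counts, held 11 counts of miR-30a-5p, 1 of miR-30b-5p, 8 of miR-30c, 189 of miR-30d and 12 of miR-30e-5p. Without it, miR-30a-5p was at −0.26, miR-30b-5p at −0.13, miR-30c at −0.12, miR-30d at −0.28 and miR-30e-5p at −0.58 (adjusted p = 0.182, edgeR), with 0 members called. The summed granulosa and cumulus list was at 13254, 13712 and 11553 CPM in control at 22 h, its highest condition, and at 7498, 5178 and 7410 CPM in CBX at 22 h, with no overlap. The summed list thus went the same way as the members, and its part in these values was not tested. One miRNA of the list, miR-21-5p, averaged 4591 CPM over the 39 libraries, against a median of 7512 CPM for the sum. It thus made up a large part of the sum, and the study itself reported it as lower in CBX than in control at 22 h. The directions of the other miRNAs of the list are not given, so the sum need not stand for the list as a whole. The muscle list overlapped between these groups, at 41.9 to 2542 CPM in control and 312 to 1496 CPM in CBX.

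Another 2 member tests had an unadjusted p under 0.05. In DO at 1 h, miR-30b-5p was at 745, 395 and 540 CPM, against 1114, 607 and 907 CPM in control, a log2 fold change of −0.58 (SE 0.22, adjusted p = 0.969, edgeR). Each DO library was lower than the control library of its number, yet the groups overlapped. At 22 h, miR-30e-5p was higher in cocult (1555, 1318 and 1684 CPM) than in CBX, with a log2 fold change of 0.62 (SE 0.24, adjusted p = 0.717, edgeR). These groups did not overlap. In the scaling of each comparison, this was so in 1 of the 18 group comparisons of miR-30e-5p and in 0 for the other members tested. The share of all miRNAs without overlap was not counted, so no weight is put on this separation. The comparison of cocult with CBX uses the same CBX libraries as the one with control.

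Pooling the 3 times in an additive fit over the 36 libraries at 1, 6 and 22 h narrowed the intervals. The share of the 600 miRNAs tested with an adjusted p under 0.05 was 0.167% for control against CBX, 0% for cocult and DO against control and for cocult against DO, and 0.5% each for cocult and DO against CBX. Among the 5 members tested, 0 were called in each of the 6 contrasts. Against control, miR-30d was at −0.14 (95% interval −0.32 to 0.04) in CBX, −0.04 (−0.21 to 0.14) in cocult and −0.05 (−0.23 to 0.13) in DO on the log2 scale. The values of miR-30e-5p against control were −0.26 in CBX, −0.05 in cocult and −0.23 in DO, with standard errors of 0.16. Those of miR-30a-5p were −0.06, 0.14 and −0.03, with standard errors of 0.14. A test of the group by time interaction called 0 of the 5 members (adjusted p = 0.975 for each, edgeR) and 0 of 600 miRNAs. Simulated data had changes in CBX at 22 h only and the same dispersion for all miRNAs. There, that test recovered 6.67% of log2 changes of 1 and 60.9% of log2 changes of 2 among 571 miRNAs. Most interactions with a log2 change of 1 would thus be missed at these settings. Recovery for a single member was not simulated. A test for any difference among the 13 conditions called 0 members and 7 of 598 miRNAs (1.17%), and the smallest adjusted p of a member was 0.693 (edgeR).

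**Figure D3:**
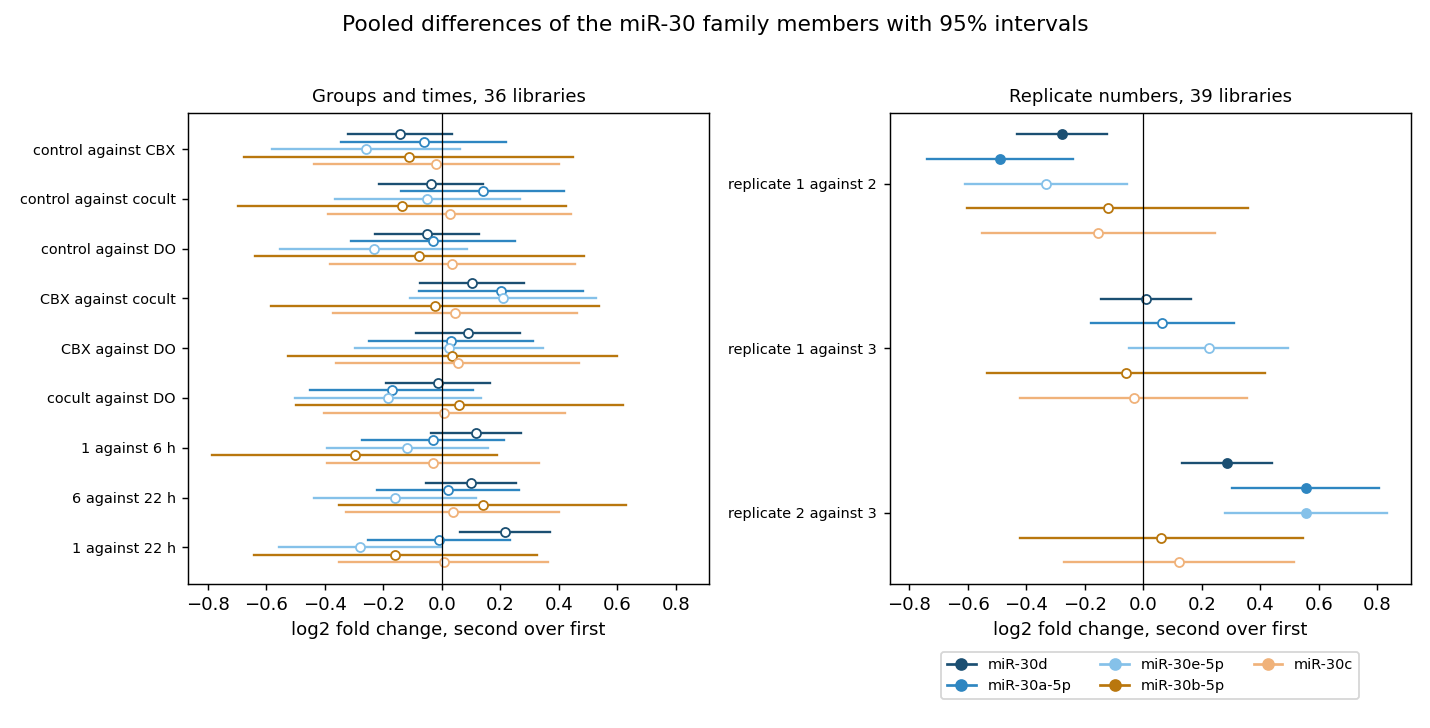
Log2 fold change (horizontal axes, second over first) of 5 miR-30 members with 95% intervals in the pooled contrasts, for groups and times over 36 libraries (left) and for replicate numbers over 39 libraries (right). Filled points have an adjusted p under 0.05 in edgeR, and these appear on the right only, in the contrasts with replicate 2.

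No member passed the test between times either. Within single groups, the 15 time comparisons gave 0 calls in 75 member tests, against 11 of 6485 tests over all miRNAs (0.170%). That share was 0.44% in control from 1 to 22 h (0.659% with no fold minimum), 0.227% in CBX from 6 to 22 h, 1.81% in DO from 1 to 22 h and 0% in the other 12. There was 1 member test with an unadjusted p under 0.05, miR-30e-5p in CBX from 1 to 22 h, at −0.83 (SE 0.33, adjusted p = 0.388, edgeR). Its libraries were at 2314, 1015 and 1631 CPM at 1 h and at 953, 536 and 1281 CPM at 22 h, and the times overlapped. In the pooled fit, 1.33% of 600 miRNAs were called from 1 to 6 h, 0% from 6 to 22 h and 11% from 1 to 22 h, and 0 of the 5 members in each. Scaling on the known miRNAs alone moved the median of all known miRNAs by 0.12 (log2) from 1 to 6 h and by 0.04 from 1 to 22 h. From 1 to 22 h the log2 fold change of miR-30d was 0.22 (95% interval 0.06 to 0.37, adjusted p = 0.0598, edgeR), and miR-30d was higher at 22 h in 11 of 12 pairs of libraries of the same group and number. It was past the threshold with DESeq2 (0.23, adjusted p = 0.0138), with DESeq2's size factors in edgeR (0.23, adjusted p = 0.0381) and without the shallow libraries (0.25, adjusted p = 0.0233, edgeR). It was further from the threshold with library totals only (0.14, adjusted p = 0.203, edgeR), without the replicate block (0.22, adjusted p = 0.161, edgeR) and above all without replicate 1 (0.12, adjusted p = 0.458, edgeR). For miR-30e-5p the value was −0.28 (interval −0.55 to −0.00196, adjusted p = 0.186, edgeR), and it was lower at 22 h in 9 of 12 pairs. Without replicate 1 it was −0.12 (adjusted p = 0.675, edgeR). miR-30a-5p was at −0.01, miR-30b-5p at −0.16 and miR-30c at 0.01.

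The count of miR-30d over that of miR-30e-5p in the same library needs no scaling between libraries. These members were set side by side after their values had been seen, so the ratio is given without a test. Its median was 7.75 at 1 h (4.37 to 9.53), 8.93 at 6 h (4.65 to 16.2) and 10.7 at 22 h (7.25 to 15.8), with 12 libraries at each time. The highest values at 6 and 22 h came from shallow libraries. These were control 6 h replicate 1 (308 over 19 counts) and CBX 22 h replicate 2 (189 over 12 counts), which also enters the CBX mean below. The ratio was higher at 22 h in 11 of 12 pairs of the same group and number. The mean went from 7.23 ± 0.559 to 9.18 ± 1.99 in control, from 7.17 ± 2.61 to 13.0 ± 2.67 in CBX, from 6.88 ± 1.73 to 9.80 ± 2.36 in cocult and from 8.59 ± 0.399 to 10.5 ± 2.42 in DO (SD, n = 3 each). The exception was DO replicate 2, at 9.00 at 1 h and 7.94 at 22 h. Without replicate 1, the median went from 8.10 to 9.31, and the ratio was higher at 22 h in 7 of 8 pairs. At 0 h the control libraries had ratios of 4.66, 7.81 and 8.11. Over the same span the median share of miR-30d in the family went from 72.5% to 75.8%, and that of miR-30e-5p from 9.24% to 7.12%.

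**Figure D4:**
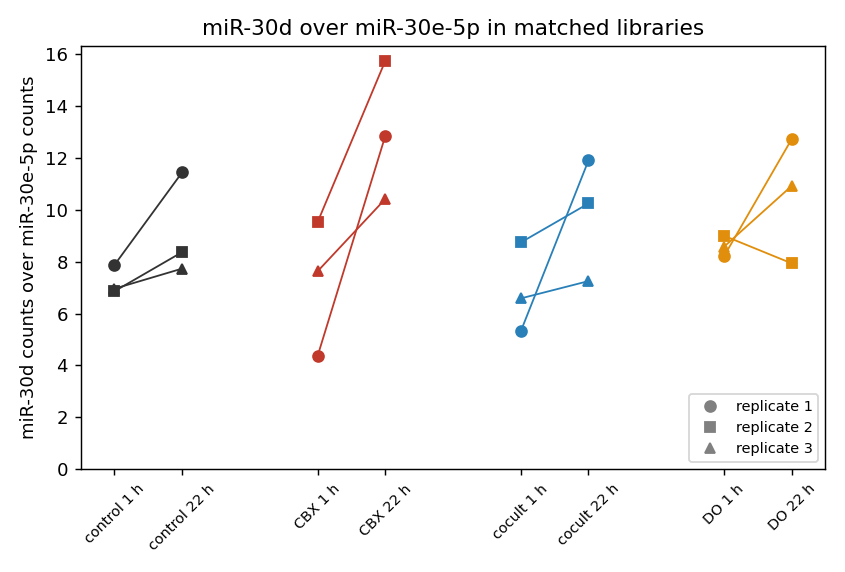
Ratio of miR-30d counts to miR-30e-5p counts (vertical axis, from 0) in libraries at 1 and 22 h of each group, with a line joining libraries of the same group and replicate number and a symbol for the number. The line goes up in 11 of 12 pairs and down in DO replicate 2.

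Some members were called between replicate numbers. Replicate 2 had the lowest family sum in 11 of 13 conditions, and so had miR-30a-5p and miR-30d, while miR-30e-5p was lowest there in 10 conditions. For miR-30b-5p this was so in 4 conditions and for miR-30c in 6. The median family sum was 16660 CPM in replicate 1 (12213 to 23707), 14090 CPM in replicate 2 (9864 to 18473) and 17470 CPM in replicate 3 (14569 to 20490), over 13 libraries each. The ranges overlapped.

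This comparison was added after the order had been seen, with the 13 conditions as terms in edgeR. A difference among the 3 numbers was called for 135 of 598 miRNAs (22.6%), and for 3 of the 5 members tested, miR-30a-5p (adjusted p = 0.00431), miR-30d (adjusted p = 0.00947) and miR-30e-5p (adjusted p = 0.0122). From replicate 1 to replicate 2, where 14.5% of all miRNAs were called, miR-30a-5p fell by 0.49 (SE 0.12) and miR-30d by 0.28 (SE 0.08) on the log2 scale. miR-30e-5p was at −0.33 (SE 0.14, adjusted p = 0.0984, edgeR). From replicate 2 to replicate 3 (12% called), miR-30a-5p rose by 0.55, miR-30d by 0.29 and miR-30e-5p by 0.56. Between replicates 1 and 3, 6.52% of all miRNAs and 0 of the members were called. miR-30b-5p and miR-30c were called in none of the 3 contrasts.

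The member calls for any difference among the 3 numbers were lost when the predicted miRNAs were left out. Leaving them out changes the scaling and the tested set together. The member calls for any difference numbered 3 as well with library totals only and with DESeq2's size factors. With the known miRNAs scaled and tested on their own, 13 of 147 (8.84%) and 0 members were called for any difference. miR-30a-5p was still called from replicate 1 to 2, at −0.38 (adjusted p = 0.0440, edgeR). From 2 to 3 it was at 0.39 (adjusted p = 0.0607, edgeR). For miR-30d these values were −0.18 and 0.13. The change of scale moved the median of 146 known miRNAs by 0.11 from replicate 1 to 2 and by −0.16 from 2 to 3. The family's share of known counts, which is free of that scale, had a median of 3.23% in replicate 2 (2.74% to 4.09%). It was 3.99% in replicate 1 (3.39% to 4.57%) and 4.04% in replicate 3 (3.49% to 4.55%), so the ranges overlapped. Other measures had overlapping ranges as well. The median total was 58261 counts in replicate 2 (18796 to 99835), against 91725 in replicate 1 (11985 to 175429) and 70069 in replicate 3 (49916 to 98950). The muscle list had a median of 258 CPM in replicate 2 (66.4 to 12214), against 104.7 CPM in replicate 1 (17.1 to 1125) and 150.3 CPM in replicate 3 (0 to 1496). The granulosa and cumulus list had a median of 6958 CPM in replicate 2 (5178 to 13712), against 9272 CPM (5181 to 13254) and 7512 CPM (5408 to 11553). Their part in the result was not tested, and an ovary pool and a day of culture or processing that goes with its number cannot be told apart.

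The known miRNAs whose condition means went most alike with the family sum were miR-146b (Pearson r = 0.96), miR-16b (0.87), miR-7 (0.73), miR-93 (0.67) and miR-21-5p (0.67). These were chosen among 120 miRNAs with a mean of at least 100 CPM. Each of the 13 conditions entered as the log2 of its mean CPM plus 1, and the condition means share their libraries and scaling. Member by member, the most alike were miR-141 for miR-30a-5p (0.87), miR-2284x for miR-30b-5p (0.83), miR-218 for miR-30c (0.80), miR-146b for miR-30d (0.88) and miR-101 for miR-30e-5p (0.94). The members thus had different nearest miRNAs, and the family sum shared that of miR-30d, its main part.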

How the data were processed

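The deposited values are whole-number counts per mature miRNA in 39 libraries. The authors trimmed the reads, removed duplicates by molecular identifier with UMI-tools (1.1.2 in the submitters' processing notes), aligned to ARS-UCD1.2 and counted known and predicted miRNAs with miRPro, without normalization. How reads shared by near-identical members were divided is not given in the sources used here, so values of single members are uncertain to that extent, and mature sequences were not used here. The members and lists were chosen with earlier results of these data known.

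Known and predicted miRNAs were fitted together with edgeR 4.0.16 (limma 3.58.1, R 4.3.3), using filterByExpr (minimum count 10, minimum total 15), TMM, the quasi-likelihood F-test and Benjamini-Hochberg adjustment over all miRNAs tested. Each of 33 comparisons used its own 6 libraries with the replicate number as a block. Pooled fits had group, time and replicate number as terms. Per the study's methods the maturation was repeated and a pair of repeats was pooled for each library. For the 0 h libraries nothing states separate cultures, and p-values there may measure technical spread only. Every member and opposite arm is named, with the 5 miRNAs most like the sum and the 1 most like each member. RefSeq gene names came from ARS-UCD2.0.

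The study's methods enter the ovary pool as a batch effect, and the labels' replicate numbers were assumed here to stand for it. Deviations of same-numbered libraries correlated with a median of 0.22 (234 pairs), against −0.093 for other numbers, and every pair exceeded 0.1 in 19 of 33 comparisons, so that in the rest the libraries may share only a number. The scripts were tested on simulated data with the same dispersion for all miRNAs. In the comparison of control at 1 and 22 h (480 simulated miRNAs), 22.7% of log2 changes of 1 and 96.1% of log2 changes of 2 were recovered, and in the pooled comparison of these times (571 simulated miRNAs) 93.3% and 100%. DESeq2 1.42.0 and the other alternatives are given in the closing section.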

Additional observations from a re-analysis of the deposited data

How the results depend on the processing

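Of 276 values under alternatives, 258 were taken as the same. For a fold change this means the same sign and call, whatever its size. For a number of calls it means an equal number, and for levels and shares a shift within the usual SD of libraries. Sizes could move within this rule, as for miR-30e-5p in CBX from 1 to 22 h, from −0.83 to −0.06 with members summed. Member calls were 0 under every alternative for the comparisons of groups, of times within a group, the interaction, any condition difference and the pooled group contrasts, without the replicate block (0) and with each replicate left out (0 to 0) included. Between pooled times there was 1 member call, miR-30d from 1 to 22 h, under DESeq2 (0.23), DESeq2's size factors (0.23) and without libraries under 25000 counts (0.25), where the cause was not tested, and 0 to 0 with a replicate left out. Leaving out a replicate gave 0.12 to 0.29 for that miR-30d value and −0.37 to −0.12 for miR-30e-5p, the smallest changes without replicate 1. Direction turned for values near 0. miR-30c in control against CBX at 22 h was 0.11 with known miRNAs only and −0.11 to 0.00715 with a replicate left out (above 0 without replicate 3). Pooled miR-30d in control against cocult was 0.00449 without the shallow libraries and −0.11 to 0.0203 with a replicate left out (above 0 without replicate 1), and in control against DO 0.0264 with known miRNAs only and 0.0205 without the shallow libraries. Summing miR-30a-5p, miR-30d and miR-30e-5p before the fit gave 0.15 from 1 to 22 h in place of miR-30e-5p's −0.28, since miR-30d dominates that sum. The test for any replicate difference, added after seeing the data, had 0 member calls with known miRNAs only (miR-30d −0.18 and 0.13) and 1 with members summed. With known miRNAs only, miR-30a-5p was still called from replicate 1 to 2 (−0.38, adjusted p = 0.0440, edgeR). The ratio of the highest to the lowest family mean was 1.27 to 1.66 with a replicate left out, the largest without replicate 3. The share of miR-30d was 73.5% to 74.5%. Groups of 3 libraries of 11985 to 175429 counts limit what single comparisons could detect, most of all for miR-30b-5p and miR-30c.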
